A study of Mus musculus with 44 samples.

Results

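The comparison described here is that of *Pou5f1*-KO with Ctrl late morula, 6 of the 44 ATAC-seq libraries of a study of the transcription factors Oct4 and Sox2 in the mouse preimplantation embryo. The members were chosen by their labels: the 3 libraries Oct4_KO_LateMorula and the 3 libraries Oct4_Ctrl_LateMorula, read over all 152393 accessible sites (peaks) of the series. ATAC-seq cuts open chromatin with the transposase Tn5, and the insertions in a 200 bp window measure how accessible that window is. Each library was made from a pool of whole late compacted morulae of B6C3F1 background, at E3.25, sorted by the fluorescence of the reporter mKO2, and libraries are the replicates; nothing shows that the pools came from different mothers, so the p-values measure the spread between pools.

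KO embryos lacked both copies of *Pou5f1*, the gene of Oct4. The maternal floxed copy was deleted in the oocyte by Cre under the *Zp3* promoter, and the paternal copy was an mKO2 reporter allele without Oct4 function. Ctrl embryos came from mothers of the same genotype, so they shared the maternal deletion, and they kept 1 intact paternal copy. The comparison therefore reads the loss of the zygotic copy, in embryos that all lacked the maternal one. Morulae were not treated with an inhibitor. The inner cell mass (ICM) libraries used for reference, early at E3.75 and late at E4.5, came from embryos cultured with 1 µM PD0325901, a MEK inhibitor, until the blastocyst stage, after removal of the trophectoderm. Some of them came from a separate *Sox2* line. Its KO embryos had the maternal floxed *Sox2* deleted by the same Cre and a paternal *Sox2*-KO allele labelled with EGFP. Its Ctrl embryos lacked only the maternal copy.

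Oct4 is a POU-domain factor that binds an octamer, ATGCAAAT, and in pluripotent cells it often binds next to Sox2 at a composite OCT-SOX element. Around the late morula stage, outer cells take up the trophectoderm programme and inner cells become the ICM, which later forms epiblast and primitive endoderm. Whole morulae hold both positions, so that a lower value in a pool can come from fewer cells with an open site or from a less open site in each cell, and these cannot be told apart here.

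Values are the rlog values of the authors, insertion counts scaled for depth and put on a log2 scale, in which weak peaks are pulled toward their mean over libraries. A difference is KO minus Ctrl on that scale, with its standard error (SE) from limma, and peaks with a Benjamini-Hochberg adjusted p under 0.05 over all peaks were called, as decreased or as increased by the sign. The depth of the libraries is unknown. The 6 libraries were alike in their overall values, with median rlog between 2.52 and 2.63 and a correlation across peaks of 0.860 to 0.885 within a group. Of the morula libraries used for reference, Oct4_KO_Morula 1 stood apart from the other KO morulae, as given below.

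In late morula, 822 peaks were decreased, which is 0.539% of all peaks, and 165 were increased, which is 0.108%. The decreased peaks went from a median rlog of 3.66 in Ctrl to 1.54 in KO, and their median difference was -2.0, against -0.01 over all peaks. The increased peaks went from a median rlog of 0.876 in Ctrl to 2.93 in KO, with a median difference of 1.92. The difference was 2 or more in size at 410 decreased and 49 increased peaks. In 816 of the decreased peaks every KO library lay below every Ctrl library, as it did at 8.94% of all peaks, and in 162 of the increased peaks every KO library lay above, as it did at 7.69% of all peaks. These peaks were called on the same values, so the counts describe the calls and do not add to them.

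**Figure D1:**
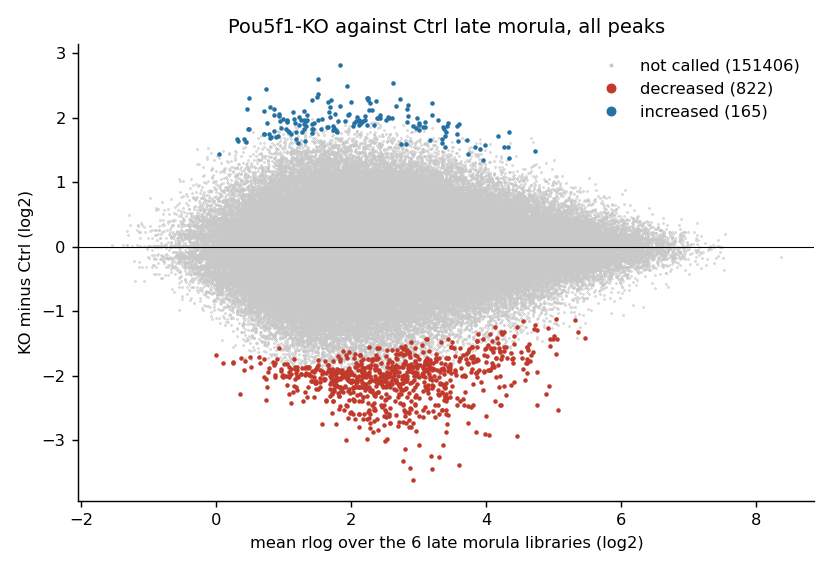
Difference between *Pou5f1*-KO and Ctrl late morula (log2, y axis) against the mean rlog over the 6 late morula libraries (x axis), 1 point per peak. The 822 decreased peaks (red) reach -3.62 and the 165 increased peaks (blue) reach 2.82, while the 151406 peaks not called (grey) are centred on 0.

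The same-numbered KO and Ctrl libraries varied together, and a fit with the replicate number as a block (paired) called 1357 decreased peaks (0.89%) and 350 increased peaks (0.23%). All 822 and 165 peaks of the unpaired fit were among them. Fitted on the 6 late morula libraries alone, the paired model called 2469 and 1328 peaks and the unpaired model 1219 and 369, while a filter at the median rlog left 659 and 63 calls among 76197 peaks and quantile normalization gave 1046 and 264. Without 1 library the unpaired fit called fewer peaks: 544, 301 and 382 decreased without Ctrl 1, 2 and 3, and 490, 405 and 414 without KO 1, 2 and 3. For the increased peaks the counts were 59, 85 and 49 without Ctrl 1, 2 and 3, and 115, 30 and 27 without KO 1, 2 and 3.

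Octamers stood in more of the decreased windows than of all windows. The word ATGCAAAT, on either strand, stood in 157 of the 822 decreased windows (19.1%), in 1 of the 165 increased windows (0.606%) and in 2.39% of all windows. The OCT-SOX word, which is CNTTGT, 1 free letter and ATGCAAAT with at most 2 of the 13 compared letters changed, stood in 11.7% of the decreased windows, 0.606% of the increased windows and 1.19% of all windows. Both words were in 45 decreased windows, and 208 (25.3%) held one or the other, against 3.26% of all windows. A word match is a description of the letters and does not show that the factor was bound.

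The best match to the OCT-SOX word is shown for peaks that the results below turn on, 5' to 3' on the strand of the match, with the letters that match the word in capitals and the free and changed letters in lower case. The first set was decreased in KO late morula, and the second set was not called, although its matches to the word are as close. All positions are those of mm10 (GRCm38).
Dppa3, chr6:122624681-122624695, minus strand: CtTTGacATGCAAAT
Dlg5, chr14:24148969-24148983, minus strand: CagTGTcATGCAgAT
Hacd1, chr2:14043073-14043087, minus strand: aaTaGTtATGCAAAT
Znrf2, chr6:54852865-54852879, plus strand: CaTTGatATGtAAAT
Serpini1, chr3:75650936-75650950, plus strand: ttTTGTaATGCtAAT
Sox2 enhancer SRR2, not called, chr3:34654049-34654063, plus strand: CaTTGTgATGCAtAT
Pou5f1 enhancer CR4, not called, chr17:35504049-35504063, minus strand: CtTTGTtATGCAtcT
Utf1 enhancer, not called, chr7:139945681-139945695, minus strand: CaTTGTtATGCtAgT

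Windows with closer matches were decreased in larger shares, apart from the few full matches. Of windows with 0, 1 or 2 changed letters, 7.14%, 7.69% and 4.91% were decreased. With 3 changed letters the share was 2.54%, with 4 it was 0.702%, with 5 it was 0.283%, and with 6 it was 0.0823%. Only 14 windows had a full match, and 1 of them was decreased. Most decreased windows, 614 of 822, held neither word, so these letters alone did not mark the set.

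The octamer windows as a whole had lower values in KO, beyond the called peaks. Over the 3639 windows with ATGCAAAT, the mean rlog was 2.14, 2.31 and 2.29 in the Ctrl libraries and 1.75, 1.77 and 1.84 in the KO libraries, and the groups did not overlap. Without the called peaks, 3481 such windows remained, with 2.07, 2.24 and 2.22 in Ctrl and 1.75, 1.77 and 1.85 in KO. The mean over all peaks was 2.61 to 2.67 in Ctrl and 2.56 to 2.67 in KO.

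Other words were read in the same way. CDX, with the letters CCATAAA, stood in 6.81% of decreased windows and 3.03% of all windows. For AP-1, TGACTCA, the shares were 8.39% and 5.92%. For SOX factors, CCATTGT, they were 5.84% and 4.0%. TEAD factors, the effectors of the Hippo pathway, bind ACATTCC, which stood in 8.76% and 7.53%. The GATA word AGATAAG stood in 8.76% and 7.71%.

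Several words stood in a smaller share of the decreased windows than of all windows. For TFAP2, GCCNNNGGC, the shares were 6.69% and 11%. For KLF factors, CCACACCC, they were 5.11% and 8.86%, and for ESRRB, AAGGTCA, they were 7.66% and 9.66%. CTCF was read as AGGGGGC, with 2.19% and 4.53%. ETS factors were read as CCGGAAG, with 1.22% and 2.71%. The decreased windows had a mean GC content of 45.5%, against 51.0% over all windows, and these shares move with base composition, whose part was not tested.

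**Figure D2:**
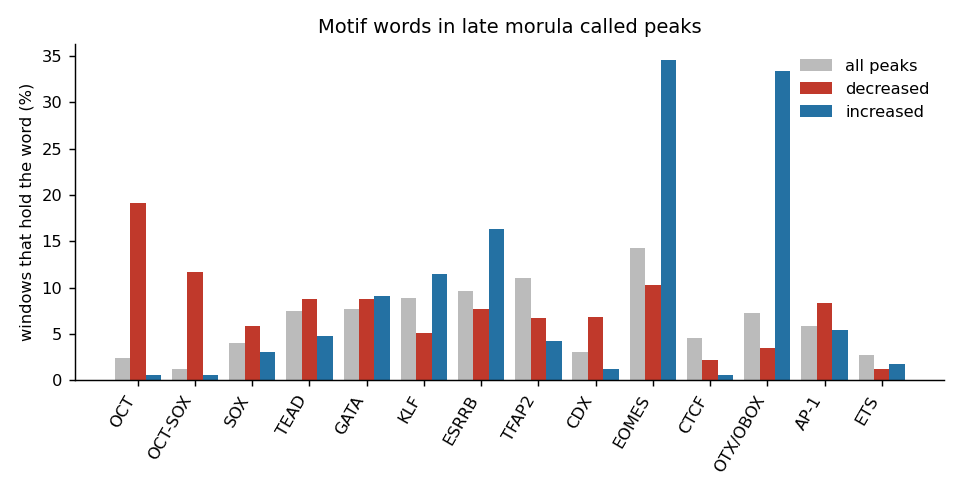
Share of windows (%, y axis) that hold each of 14 motif words on either strand, for all 152393 peaks (grey), the 822 decreased (red) and the 165 increased (blue) peaks of KO late morula. The OCT word stands in 19.1% of decreased windows, and the OTX/OBOX and EOMES words in 33.3% and 34.5% of increased windows.

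The called peaks were mostly away from promoters. Of the decreased peaks 98.5%, and of the increased peaks 98.8%, lay more than 100 bp from every annotated transcription start site, against 92.2% of all peaks. Introns held 45.4% of the decreased peaks and 43.0% of all peaks, and 51.7% and 48.7% lay outside genes. The X chromosome held 3.89% of the decreased peaks and 2.90% of all peaks.

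The 10 largest decreases, taken among the peaks in which every KO library lay below every Ctrl library, were in introns and between genes. The first was in an intron of *Dlg5*, which encodes a scaffold protein of cell polarity, at chr14:24148945-24149144. Its rlog was 1.49, 0.88 and 0.94 in KO libraries 1 to 3 and 4.5, 4.62 and 5.04 in Ctrl libraries 1 to 3. The difference was -3.62 ± 0.47 (SE, n = 3 and 3, adjusted p = 1.5e-07 in limma), a 12.3-fold lower value. The window on the plus strand is shown with the OCT-SOX match in capitals.
Dlg5: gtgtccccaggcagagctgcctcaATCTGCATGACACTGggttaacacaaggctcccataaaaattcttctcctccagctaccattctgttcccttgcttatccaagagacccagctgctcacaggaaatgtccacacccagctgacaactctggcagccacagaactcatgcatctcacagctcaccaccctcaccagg

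The intronic peak of *Hacd1*, which encodes a dehydratase of long-chain fatty acid synthesis, at chr2:14042992-14043191, was at 1.04, 1.34 and 0.93 in KO and 4.43, 4.85 and 3.99 in Ctrl. It differed by -3.32 ± 0.45 (adjusted p = 4.6e-07 in limma). Its window is shown because it holds the octamer more than once, in the reverse sense, with the matches in capitals.
Hacd1: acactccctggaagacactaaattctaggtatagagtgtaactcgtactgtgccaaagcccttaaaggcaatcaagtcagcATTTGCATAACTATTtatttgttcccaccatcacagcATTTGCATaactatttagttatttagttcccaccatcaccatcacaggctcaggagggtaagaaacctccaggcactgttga

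Of the other 8 of these peaks, the one in an intron of *Cers6*, a ceramide synthase, was at 2.03, 1.23 and 1.17 in KO and 4.81, 5.14 and 4.81 in Ctrl (difference -3.45 ± 0.45, adjusted p = 1.5e-07 in limma). A peak 57024 bp downstream of *Plpp3*, a lipid phosphate phosphatase, was at 2.10, 1.97 and 1.65 in KO and 5.06, 5.50 and 5.32 in Ctrl (-3.39 ± 0.40). In *Zfp57*, a zinc finger factor that keeps genomic imprints, an intronic peak was at 1.65, 1.61 and 1.12 in KO and 4.37, 5.02 and 4.22 in Ctrl (-3.08 ± 0.45). None of these 3 windows held the OCT or the OCT-SOX word. The other 5 were in introns of *Zfp385b* (-3.43), *Ccdc81* (-3.26), *Slc10a7* (-3.14) and *Noxred1* (-3.07) and 28845 bp upstream of *Msantd3* (-3.24). All 10 stayed called without any 1 library.

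All 10 of these peaks had negative differences in the other *Pou5f1*-KO stages too, between -1.21 and -2.45 at the morula stage, between -1.28 and -3.43 in early ICM, then between -1.30 and -3.40 in late ICM. Both ICM comparisons called all 10, and the morula comparison called 4 of them, *Cers6*, *Ccdc81*, *Msantd3* and *Noxred1*. In *Sox2*-KO late ICM, their differences ran from -2.45 at *Dlg5* to 1.30 at *Zfp385b*, and both of these were called (adjusted p = 3.3e-06 and 0.03 in limma). The *Zfp385b* peak was thus decreased without Oct4 and increased without Sox2, in different libraries.

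**Figure D3:**
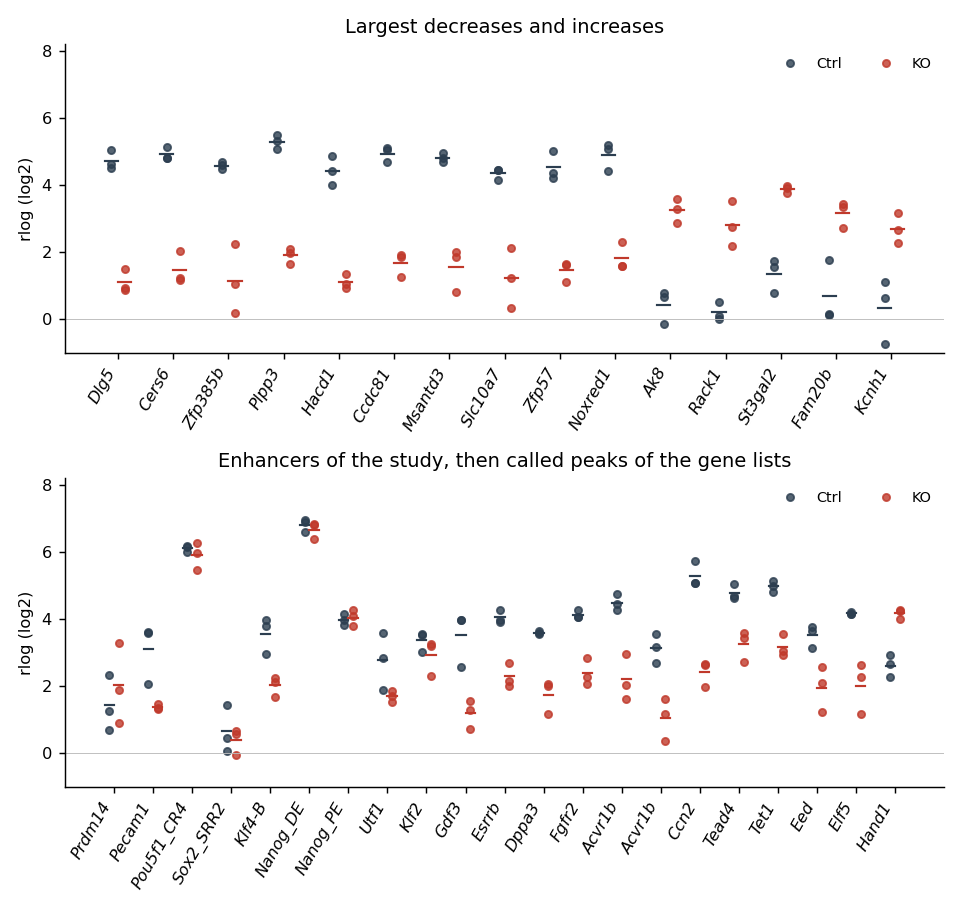
rlog value (log2, y axis) of each Ctrl (dark) and KO (red) late morula library at the 10 largest decreases and 5 of the largest increases (top), and at the 9 enhancer peaks and at called peaks of gene lists (bottom); bars are group means. Groups are apart at *Dlg5* (KO 0.88 to 1.49, Ctrl 4.5 to 5.04) and overlap at *Nanog_DE* (KO 6.38 to 6.82, Ctrl 6.58 to 6.95).

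Peaks of the targeted gene were not called. How accessible they are does not measure Oct4 itself, so they are no check of its loss. Within 5 kb of *Pou5f1* (chr17:35506018-35510772) there were 7 peaks, and none was called (adjusted p from 0.63 to 1 in limma). The strongest, the distal enhancer CR4 2001 bp upstream, was at 6.27, 5.98 and 5.45 in KO and 6.01, 6.18 and 6.16 in Ctrl (-0.22 ± 0.24). The peak 31 bp upstream of the gene was at 3.72, 3.96 and 4.55 in KO and 4.29, 4.24 and 2.57 in Ctrl (0.37 ± 0.38). The lowest difference was in a coding exon, at 1.72, 1.48 and 1.60 in KO and 1.46, 3.17 and 2.97 in Ctrl (-0.93 ± 0.50), where the groups overlap.

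Of the 9 enhancer peaks of the study, which lie at pluripotency genes, 1 (11%) was called decreased, where 0.539% of all peaks were, and with 9 peaks no share can be read. The called peak was Klf4-B, which is 49525 bp downstream of *Klf4*, a factor of the naive state. It was at 2.14, 2.24 and 1.69 in KO and 2.95, 3.78 and 3.97 in Ctrl (-1.54 ± 0.38, adjusted p = 0.024 in limma), and it kept the call only without Ctrl 1. The intronic peak of *Pecam1*, an adhesion molecule of the ICM, was at 1.47, 1.31 and 1.34 in KO and 2.06, 3.60 and 3.63 in Ctrl (-1.72 ± 0.48, adjusted p = 0.069), and the paired fit called it (adjusted p = 0.027).

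The distal enhancer of *Nanog*, Nanog_DE, was at 6.80, 6.82 and 6.38 in KO and 6.58, 6.95 and 6.88 in Ctrl and the groups overlapped (-0.14 ± 0.20). The Nanog_PE peak, 30 bp from a start site, differed by 0.06 ± 0.38, and the enhancer peak of *Klf2* by -0.44 ± 0.44. The SRR2 enhancer of *Sox2* was nearly closed in both groups, at 0.67, -0.05 and 0.57 in KO and 0.46, 0.08 and 1.45 in Ctrl (-0.27 ± 0.50). In early ICM the same peak was called, at -1.97 (adjusted p = 0.0007 in limma), and in Ctrl embryos it was 2.51 higher in early ICM than in morula. The *Utf1* enhancer differed by -1.07 ± 0.44 in late morula (adjusted p = 0.38) and by -3.72 in early ICM (adjusted p = 6.1e-13), and the difference between these effects, -2.65, passed its own test (adjusted p = 0.015). For SRR2 that difference, -1.7, did not (adjusted p = 0.3).

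The peaks of 12 gene lists were read against the share over all peaks, and with 0 to 3 decreased peaks each, from 0% to 1.52%, the called peaks below are single values and no result about a list. Of 336 peaks on or within 10 kb of 29 pluripotency genes, 3 (0.893%) were decreased and none increased, beside 0.539% over all peaks. The peak in an intron of *Gdf3*, a TGF-beta family ligand, was at 1.29, 0.72 and 1.56 in KO and 2.58, 3.98 and 3.98 in Ctrl (-2.32 ± 0.43, adjusted p = 0.00047 in limma), and it stayed called without any 1 library. The peak in *Esrrb*, a nuclear receptor of the naive state, was at 2.17, 2.01 and 2.69 in KO and 3.97, 3.92 and 4.26 in Ctrl (-1.76 ± 0.37, adjusted p = 0.0038), and it lost the call without KO 2 (adjusted p = 0.05). The peak 1749 bp upstream of *Dppa3*, a maternal and germ line protein, was at 1.16, 2.01 and 2.07 in KO and 3.64, 3.55 and 3.60 in Ctrl (-1.85 ± 0.45, adjusted p = 0.021), and it kept the call only without KO 3. In these 3 peaks KO and Ctrl did not overlap, and all 3 were also decreased in early and in late ICM. The *Dppa3* window is shown with its octamers and its OCT-SOX match in capitals, since that match has 1 changed letter.
Dppa3, chr6:122624562-122624761, plus strand: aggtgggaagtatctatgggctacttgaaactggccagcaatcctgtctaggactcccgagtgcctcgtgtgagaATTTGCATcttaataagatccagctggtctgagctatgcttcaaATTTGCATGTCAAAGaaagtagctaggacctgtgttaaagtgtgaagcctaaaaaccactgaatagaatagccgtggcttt

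In the Hippo pathway, whose effector Yap acts with Tead4 in outer cells, 2 of 406 peaks (0.493%) were decreased. The peak 4632 bp upstream of *Ccn2*, a target of Yap, had the smallest adjusted p of the whole comparison. At chr10:24590711-24590910 it was at 2.62, 1.97 and 2.66 in KO and 5.08, 5.72 and 5.07 in Ctrl (-2.87 ± 0.32, adjusted p = 1.1e-09 in limma, a 7.33-fold lower value), and it stayed called without any 1 library. Its difference was -1.95 in morula (adjusted p = 0.00021) and -0.87 in early ICM (adjusted p = 0.034), and the effect in early ICM was weaker by 2.01 than in late morula (adjusted p = 0.011). An intronic peak of *Tead4* was at 3.60, 3.45 and 2.73 in KO and 4.70, 5.04 and 4.62 in Ctrl (-1.52 ± 0.34, adjusted p = 0.0071), and it lost the call without Ctrl 2 (adjusted p = 0.085) or KO 3 (adjusted p = 0.15). Neither window held the OCT or the OCT-SOX word.

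Of the trophectoderm list, 1 of 206 peaks (0.485%) was decreased and 1 increased, beside 0.539% and 0.108% of all peaks. The peak in an intron of *Elf5*, a factor of trophoblast stem cells, was at 2.62, 1.16 and 2.26 in KO and 4.15, 4.22 and 4.14 in Ctrl (-2.16 ± 0.45, adjusted p = 0.0038 in limma), and without KO 2 its adjusted p was 0.12. The peak at the start of *Hand1*, a factor of later trophoblast, was at 4.0, 4.26 and 4.25 in KO and 2.27, 2.92 and 2.66 in Ctrl (1.55 ± 0.40, adjusted p = 0.038), and it lost the call without any 1 library. The mean rlog over all 206 peaks was 3.36, 3.28 and 3.26 in KO and 3.44, 3.55 and 3.45 in Ctrl, with a median difference of -0.16, and the groups did not overlap. The means of 3 other lists did not overlap either, with Nodal/BMP and the metabolic list lower in KO and LIF/STAT3 higher. Of single peaks, every KO library lay below every Ctrl library at 8.94% and above at 7.69%, and no such share was computed for lists. Over the 132 peaks of the epiblast list the mean was 2.53, 2.85 and 2.70 in KO and 2.47, 2.72 and 2.58 in Ctrl, and 2 peaks (1.52%) were decreased. Over the 194 peaks of the primitive endoderm list it was 2.38, 2.50 and 2.45 in KO and 2.37, 2.41 and 2.40 in Ctrl, and no peak was called. In both of these lists the groups overlapped, while within each of the 3 same-numbered pairs KO was higher. The same held for the pluripotency list. In the Hippo and housekeeping lists the groups overlapped too, and KO was lower in each of the 3 pairs. These markers were read in chromatin, and how far a change in the cells of the pool moves with the called peaks was not tested.

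In FGF signalling, 1 of 494 peaks (0.202%) was decreased, in an intron of *Fgfr2*, an FGF receptor of the primitive endoderm, at 2.83, 2.26 and 2.06 in KO and 4.05, 4.07 and 4.26 in Ctrl (-1.75 ± 0.46, adjusted p = 0.042 in limma). It lost the call without any 1 library. In Nodal and BMP signalling, 2 of 176 peaks (1.14%) were decreased, beside 0.539% of all peaks, both in introns of *Acvr1b*, a type I receptor of Nodal. They were at 2.05, 2.95 and 1.63 in KO against 4.27, 4.74 and 4.44 in Ctrl, and at 0.36, 1.61 and 1.18 against 3.17, 3.56 and 2.69. Their differences were -2.27 and -2.09 in late morula, -0.15 and -0.35 in morula and -0.56 and -0.51 in early ICM, and they were not called in these other stages. The differences between the stages did not pass their own test (adjusted p = 1 for both against morula, and 0.3 and 0.35 against early ICM, in limma). The first lost its call without Ctrl 2 or KO 3, and the second without Ctrl 1, KO 1, Ctrl 2 or KO 3. None of the 168 peaks of the LIF/STAT3 list was called, and the paired fit called 1.

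Of the chromatin regulators, 2 of 356 peaks (0.562%) were decreased, beside 0.539% of all peaks. An intronic peak of *Tet1*, which oxidizes methylcytosine, was at 2.92, 3.56 and 3.06 in KO and 4.82, 5.14 and 4.98 in Ctrl (-1.80 ± 0.44, adjusted p = 0.023 in limma). A peak over a coding exon of *Eed*, a subunit of Polycomb complex PRC2, was at 2.57, 2.09 and 1.22 in KO and 3.77, 3.13 and 3.66 in Ctrl (-1.56 ± 0.41, adjusted p = 0.041). Of the POU and SOX families, 1 of 105 peaks (0.952%) was decreased, on *Pou2f3*, a relative of *Pou5f1*, at 1.94, 0.94 and 1.80 in KO and 2.95, 3.69 and 3.85 in Ctrl (-1.94 ± 0.43, adjusted p = 0.0081). In the metabolic list 2 of 143 peaks (1.40%) were decreased, an intronic one of *Gclc*, an enzyme of glutathione synthesis (-2.12 ± 0.50), and one next to *Pck2*, a mitochondrial PEP carboxykinase (-2.16 ± 0.52). The housekeeping list had 1 of 98 peaks (1.02%) decreased, near *Ywhaz* (-1.82 ± 0.45). *Tet1* kept its call only without KO 2, *Eed* only without KO 1 and *Ywhaz* only without Ctrl 3. *Pck2* kept it without KO 1 or Ctrl 3, *Pou2f3* without Ctrl 1, KO 1 or KO 3, and *Gclc* lost it without any 1 library. The paired fit, which called 0.89% of all peaks decreased, had 4 on pluripotency genes, 4 in FGF signalling, 5 in the Hippo pathway, 4 on chromatin regulators, 3 on the metabolic list, 3 on the trophectoderm list and 3 on the epiblast list, and nothing about a list is read from these counts.

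Some genes had several decreased peaks side by side. Of 18382 genes with a peak, 583 (3.17%) had a decreased peak and 132 an increased one, and 4 genes had 3 decreased peaks each. In *Slc37a2*, a sugar phosphate transporter, the strongest of 3 intronic peaks was at 2.18, 2.89 and 2.50 in KO and 4.80, 5.75 and 5.75 in Ctrl (-2.91, adjusted p = 1e-07 in limma). The others differed by -1.92 and -1.39. Downstream of *Serpini1*, a neuronal protease inhibitor, 3 peaks differed by -2.30, -1.96 and -1.73, and the middle one held an OCT-SOX match. In *Ccdc81* 3 neighbouring intronic peaks differed by -1.81, -2.11 and -3.26. The weaker peaks of these genes lost their calls in 4 or more of the 6 fits without 1 library, except the middle peak and the first of *Serpini1*, which kept theirs in all.

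Upstream of the olfactory receptor gene *Olfr787*, all 3 peaks of the gene were decreased, at -2.53, -1.87 and -2.79. The last was at 0.39, 0.53 and 1.21 in KO and 2.90, 3.68 and 3.93 in Ctrl. None of these was decreased in early ICM, with differences of -0.11, -0.01 and 0.15, and at the last peak the effect in early ICM was 2.95 higher than in late morula (adjusted p = 0.033 in limma). Without 1 library, the last peak kept its call in all 6 fits, the first lost it without Ctrl 2, and the middle one kept it only without Ctrl 1. *Ostf1* (-2.94 and -2.07) and *Znrf2* (-2.61 and -1.77) had 2 decreased peaks each and were chosen among the genes with that number by their adjusted p. The stronger peak of each stayed called without any 1 library, while the weaker one of *Ostf1* lost its call without Ctrl 3 and that of *Znrf2* kept it only without KO 2. *Kcnk3*, a potassium channel, had 2 increased peaks downstream, at 1.83 and 2.18, which kept their calls in 2 and 3 of these 6 fits. *Spata31d1b* had 2 increased peaks within 10 kb, at 1.94 and 2.00 (adjusted p = 0.034 and 0.042 in limma), and *Gm20388*, a gene model that spans 4434882 bp and 542 peaks, had 2 at 1.81 and 2.04 (adjusted p = 0.047 and 0.024). Of these 4 peaks, 3 kept the call in 1 of the 6 fits and the stronger of *Spata31d1b* in none.

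Several of the decreased windows were copies of a repeat. The commonest 15-letter word among decreased windows, found after their calls were known, was tattttacaaattaa. It stood in 21 decreased windows (2.55%), in no increased window and in 197 of all windows (0.129%), so that 10.7% of the windows with it were decreased, against 0.539% of all. These windows were mostly soft-masked as repeats in the genome sequence, with more than 50% of the letters masked in 194 of 197. In 173 of them the best OCT-SOX match was the same 15 letters, which overlap the word and have 3 changed letters. It is printed with the matching letters in capitals.
Best OCT-SOX match of the repeat windows: CtTTaTttTaCAAAT

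Windows at 3 loci are shown as examples, read so that the word stands in the plus sense, with the word and the OCT-SOX match in capitals. *Ccdc81* had the largest decrease of the 21. The *Rictor* window lies in an intron, and the *Gpnmb* window lies 13956 bp upstream of its gene. *Rictor* is a subunit of the kinase complex mTORC2.
Ccdc81, chr7:89883949-89884148, minus strand, -3.26: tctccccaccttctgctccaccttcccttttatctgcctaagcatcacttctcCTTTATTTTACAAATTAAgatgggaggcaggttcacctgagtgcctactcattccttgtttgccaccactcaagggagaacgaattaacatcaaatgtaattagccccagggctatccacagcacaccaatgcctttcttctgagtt
Rictor, chr15:6746660-6746859, plus strand, -2.13: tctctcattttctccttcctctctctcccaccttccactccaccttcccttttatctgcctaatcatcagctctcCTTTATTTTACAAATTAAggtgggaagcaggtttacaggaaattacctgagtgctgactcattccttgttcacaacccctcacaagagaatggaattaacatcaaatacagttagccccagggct
Gpnmb, chr6:49022491-49022690, plus strand, -2.16: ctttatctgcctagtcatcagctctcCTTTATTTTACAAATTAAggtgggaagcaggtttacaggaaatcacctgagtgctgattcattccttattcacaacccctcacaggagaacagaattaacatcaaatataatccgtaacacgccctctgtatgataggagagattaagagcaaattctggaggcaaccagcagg

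The late morula values chose this word, so those of its windows are a description. The mean rlog of the 197 windows in late morula was 1.34, 1.33 and 1.64 in Ctrl and 0.678, 0.399 and 0.724 in KO, and 87.8% of them had a negative difference. Without the 21 called windows, 176 remained, with 1.10, 1.11 and 1.40 in Ctrl and 0.602, 0.316 and 0.645 in KO, and 86.4% of these had a negative difference, against 51.0% of all peaks. The values of the other stages come from libraries that did not choose the word. In Ctrl embryos the set was higher in later stages, at 2.27 to 3.04 in early ICM and 2.76 to 3.12 in late ICM, whereas the KO libraries stayed at 0.836 to 1.15 and 0.816 to 0.991. Of the 197, 128 were decreased in *Pou5f1*-KO early ICM and 181 in late ICM, where 5.43% and 10.1% of all peaks were. In *Sox2*-KO late ICM, 138 were decreased, with a median difference of -1.56, where 4.88% of all peaks were. Of the 176 windows not called in late morula, 108, 160 and 122 were decreased in these comparisons. Only uniquely mapped reads were counted, and how far reads from other copies of the repeat were lost was not tested.

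The increased windows had other letters. The word TAATCCC, bound by OTX and OBOX homeodomain factors, stood in 55 of 165 increased windows (33.3%), against 7.30% of all windows and 3.53% of decreased ones. The EOMES word AGGTGTG stood in 57 (34.5%) against 14.3%, and the ESRRB word in 16.4% against 9.66%. Repeats took up more of these windows. More than 50% of the letters were masked in 50.3% of the increased windows, 19.2% of the decreased windows and 23.0% of all windows. Their commonest 15-letter word, cctttaatcccagca, which contains TAATCCC, stood in 28 of 165 (17%) and in 3.23% of all windows. These letters are found in B1 elements, short repeats of the mouse genome. In some of the 28 windows, such as those in *Spag6* and near *Pomc*, the first letters of the 15-letter word are part of CACACCT. That is the EOMES word on the other strand, and the part of this repeat in the EOMES share was not tested. The *Fam20b* window at chr1:156690202-156690401, read on the minus strand, is shown with the 15-letter word in capitals, since it is the largest increase that holds that word.
Fam20b: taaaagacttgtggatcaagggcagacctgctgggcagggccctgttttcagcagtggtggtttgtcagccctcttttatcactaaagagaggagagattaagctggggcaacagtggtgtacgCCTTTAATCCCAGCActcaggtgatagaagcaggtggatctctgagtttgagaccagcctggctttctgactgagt

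The largest increases, again taken among peaks without overlap of the groups, were at peaks with low values in Ctrl. An intronic peak of *Ak8*, an adenylate kinase, was at 2.86, 3.28 and 3.58 in KO and 0.77, 0.65 and -0.14 in Ctrl (2.82 ± 0.49, adjusted p = 0.00014 in limma). An intronic peak of *St3gal2*, a sialyltransferase, was at 3.77, 3.91 and 3.98 in KO and 1.57, 0.77 and 1.74 in Ctrl (2.53 ± 0.50, adjusted p = 0.0016). The *Fam20b* peak, in a kinase gene of proteoglycan synthesis, was at 2.73, 3.35 and 3.43 in KO and 1.77, 0.16 and 0.12 in Ctrl (2.49 ± 0.51, adjusted p = 0.0026). The others were 250457 bp from *Rack1* (2.60) and in *Kcnh1* (2.37). In Ctrl embryos all 5 were lower in early ICM than in morula, with differences of -1.30 to -3.25, and all passed that test. *Fam20b* lost its call without Ctrl 2 or Ctrl 3 (adjusted p = 0.057 for both) and *Kcnh1* without Ctrl 2 (adjusted p = 0.075), and the other 3 kept it in all 6 fits without 1 library.

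Many of the increased peaks were lower in Ctrl early ICM than in Ctrl morula. In Ctrl embryos, 84 of the 165 (50.9%) were lower in early ICM than in morula, which 14.6% of all peaks were, and 9 were higher, which 16.5% of all peaks were. Of the 55 with TAATCCC, 46 (83.6%) were lower, beside 43.9% of all windows with that word. Over the 165 peaks, the mean rlog was 2.61, 2.74 and 2.83 in Ctrl morula, 1.02, 1.21 and 0.972 in Ctrl late morula and 1.54 to 1.70 in Ctrl early ICM. It was 3.18, 3.15 and 3.39 in KO morula, 2.77, 3.05 and 3.15 in KO late morula and 1.79 to 1.97 in KO early ICM. The late morula values chose these peaks, and the others did not.

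The TAATCCC windows that were not called are given beside them. Over 11039 such windows the mean was 2.80 to 2.97 in Ctrl morula, 2.33, 2.36 and 2.34 in Ctrl late morula and 2.00 to 2.05 in Ctrl early ICM. In KO it was 2.82 to 3.22 in morula, 2.45, 2.71 and 2.65 in late morula and 1.98 to 2.12 in early ICM. In late morula the KO libraries lay above all Ctrl libraries, and in morula and early ICM the groups overlapped.

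**Figure D4:**
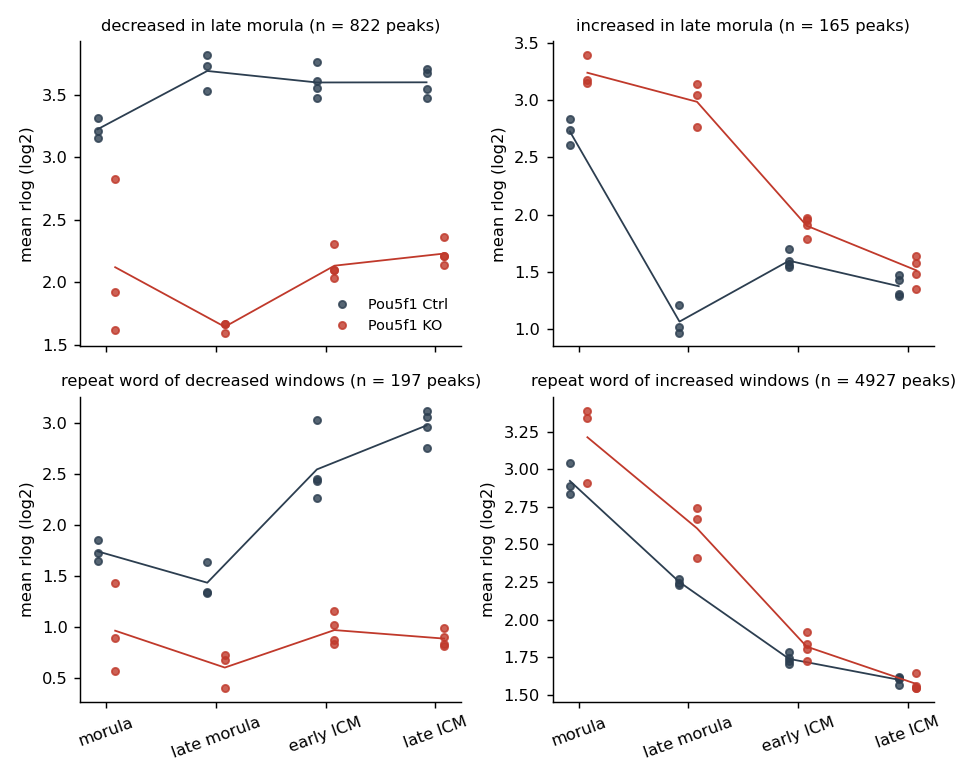
Mean rlog (log2, y axis) of each *Pou5f1* Ctrl (dark) and KO (red) library over the decreased and increased peaks of late morula (top) and over all windows with the commonest 15-letter word of each set (bottom), by stage; lines join group means. In the 197 repeat windows Ctrl rises to 2.76 to 3.12 in late ICM while KO stays at 0.816 to 0.991, and Oct4_KO_Morula 1 (2.82 in the top left panel) lies above the other KO morulae (1.92 and 1.62).

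Over all peaks, the KO late morula libraries lay less far along a line from Ctrl morula to Ctrl early ICM than the Ctrl libraries did. Each library was placed on this line between the mean Ctrl morula (0) and the mean Ctrl early ICM (1), which are libraries outside the comparison. The early ICMs were treated and isolated and the morulae were not, so stage and treatment cannot be told apart on it. Peaks decreased in *Pou5f1*-KO early ICM are among those that make up the line. The position was 0.235, 0.279 and 0.261 for Ctrl and 0.170, 0.136 and 0.145 for KO. The difference was -0.108. With 3 against 3 libraries an exact permutation test cannot give less than p = 0.1, two-sided, so these positions are a description with no test. Without the called peaks it was -0.104, and with the Ctrl early ICM of the *Sox2* line as the end it was -0.159. On the line from KO morula to KO early ICM, the KO libraries lay at 0.325 to 0.375 and the Ctrl libraries at 0.435 to 0.477.

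The peaks decreased in late morula were in large part decreased in the ICM as well, in libraries that share no sample with this comparison. All stages were fitted in 1 model with a shared estimate of the spread at each peak, so the calls are not independent of each other. Of the 822, 489 (59.5%) were decreased in early ICM and 466 (56.7%) in late ICM, where 5.43% and 10.1% of all peaks were, and their median differences were -1.43 and -1.33. In morula 124 (15.1%) were decreased, where 0.185% of all peaks were, and the median was -1.12. No decreased peak was increased in morula or early ICM and 3 were in late ICM, where 0.0518%, 2.8% and 8.19% of all peaks were increased. In all, 94 were decreased in all 4 stages, and 268 were called in late morula alone, although a call missed in another stage does not show that the effect differed.

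The morula counts moved with single libraries. Over the 822 peaks, the mean rlog was 3.21, 3.16 and 3.31 in Ctrl morula and 2.82, 1.92 and 1.62 in KO morula, so that Oct4_KO_Morula 1 lay near Ctrl. Without that library, 273 (33.2%) of the 822 were decreased in morula, with a median of -1.45. Without KO morula 2 or 3, 25 (3.04%) and 6 (0.73%) were, and without Ctrl 1, 2 or 3, 59 (7.18%), 64 (7.79%) and 69 (8.39%). The median stayed negative in all of these, between -0.87 and -1.45.

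Of the 165, morula called 1 increased (0.606%), early ICM 12 (7.27%) and late ICM 10 (6.06%), beside 0.0518%, 2.8% and 8.19% of all peaks, so the late ICM share was below that of all peaks. In all, 146 were increased in late morula alone, and the share of all peaks with that pattern was not computed. The median differences of the 165 were 0.51, 0.27 and 0.08 in these stages, against -0.02, -0.02 and -0.04 over all peaks. Early ICM called 1 and late ICM 2 of them decreased.

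Some of the decreased peaks were also decreased in *Sox2*-KO ICM, in a separate mouse line. In *Sox2*-KO early ICM, 120 of the 822 (14.6%) were decreased and 3 increased, where 1.91% and 0.238% of all peaks were. In *Sox2*-KO late ICM, 181 (22.0%) were decreased and 27 (3.28%) increased, where 4.88% and 2.71% were. For the 96 peaks with an OCT-SOX word, the median difference in *Sox2*-KO late ICM was -0.80, and 39 (40.6%) were decreased. Over all 1809 windows with that word, called or not, it was -1.06, and 789 (43.6%) were decreased. For the 112 with an octamer but no OCT-SOX word it was 0.05, and 5 (4.46%) were decreased, beside 6.73% of all such windows. For the 614 with neither word it was -0.07, and 137 (22.3%) were decreased, beside 4.37% of all such windows.

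In *Pou5f1*-KO early ICM the same groups had medians of -2.06, -1.34 and -1.32. Of the OCT-SOX peaks, 82 of 96 (85.4%) were decreased there, beside 845 (46.7%) of all 1809 OCT-SOX windows. In Ctrl embryos, 50 of 96 (52.1%) were higher in early ICM than in morula, beside 731 (40.4%) of all OCT-SOX windows and 16.5% of all peaks. Over all 3152 windows with an octamer and no OCT-SOX word, called or not, the medians were -0.39 in *Pou5f1*-KO and 0.01 in *Sox2*-KO early ICM. Over all 1809 OCT-SOX windows they were -1.16 and -0.72. These are different embryos and lines, and the difference between the groups of windows was not tested.

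**Figure D5:**
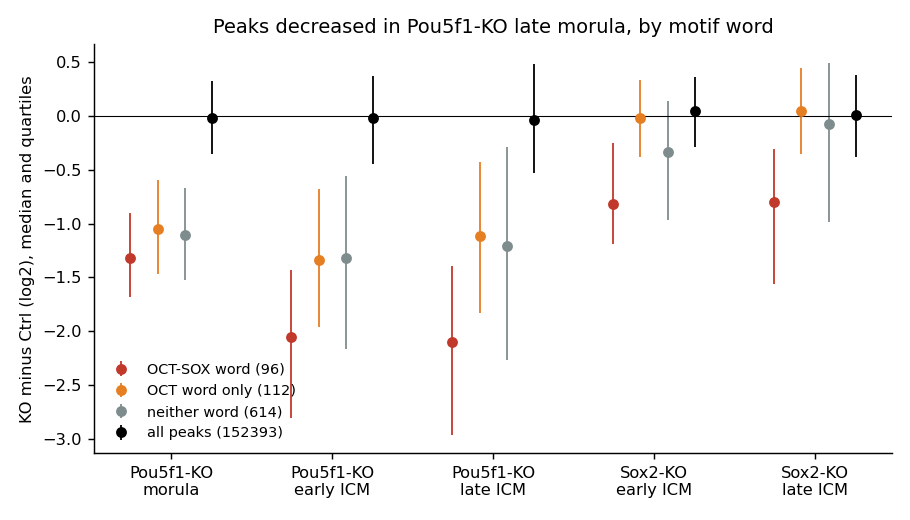
Difference between KO and Ctrl (log2, y axis) in the other comparisons, for the peaks decreased in late morula with an OCT-SOX word (96), with an octamer only (112) and with neither (614), and for all peaks; points are medians and bars run from the lower to the upper quartile. Octamer-only peaks have a median of 0.05 in *Sox2*-KO late ICM, and OCT-SOX peaks one of -0.80.

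The effect of the knockout in late morula was then compared with that in the stages on either side by a test of the difference itself. Between late morula and morula, no peak was called in either direction (0% and 0% of all peaks, smallest adjusted p = 0.697 in limma). An unadjusted p under 0.05 was found at 3032 and 2831 peaks, 3.85% of all. That fit leaves out the pairs, so 5% is no exact reference for this share. A peak not called does not show that its effects were alike in both stages. The paired fit called 1 peak. The 6 peaks that came first in this test had adjusted p-values above the threshold, and 3 of them were called in late morula. Those near *Prdm12* (-2.58 ± 0.50 in late morula and 0.63 in morula) and in *Tmc1* (-2.34 ± 0.45 and 0.51) were decreased, and the one far from *Rack1* (2.60 ± 0.50 and -0.34) was increased. The others, near *Evl* (-1.43 and 1.86), in *Macf1* (1.46 and -1.62) and in *Dnah2* (1.46 and -1.32), were called in neither stage.

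Between early ICM and late morula, the effect was more negative in early ICM at 444 peaks (0.291%) and more positive at 84 (0.0551%), and the paired fit called 1053 and 408. The late morula and early ICM values chose these peaks and are given as a description. In Ctrl the 444 were low in late morula and high in early ICM. Their median rlog was 1.25 in late morula and 4.23 in early ICM, 341 of them were higher in Ctrl early ICM than in Ctrl morula, where 16.5% of all peaks were, and their median difference was 0.14 in late morula and -2.60 in early ICM. The OCT-SOX word stood in 10.6% of their windows, beside 1.19% of all windows, and 242 of them were decreased in *Sox2*-KO early ICM, where 1.91% of all peaks were. In late morula 1 of them was decreased and 14 increased. The 84 had a median of -0.77 in late morula and 1.58 in early ICM, and 12 were decreased in late morula. Without KO late morula 3 the counts fell to 95 and 8, and over all fits without 1 library they ran from 95 to 449 and from 8 to 112. The early ICM was treated and isolated and the late morula was not, so stage and treatment cannot be told apart in this contrast.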

How the data were processed

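ATAC-seq was measured in 44 libraries of 12 groups, and 3 *Pou5f1*-KO and 3 Ctrl late morula libraries were compared. The authors aligned reads with Bowtie2 to mm10, left out duplicates and reads without a unique position, shifted the ends to the Tn5 cut, called peaks with MACS2, counted insertions in 200 bp windows around merged summits and deposited log2 values made with the rlog function of DESeq2. The largest difference between the deposited group means, also on a log2 scale, and the library means was 4.3e-08. Rlog shrinks weak peaks, so their differences are understated. Depth is not given, so no interval from counts was computed.

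A limma 3.58.1 model (R 4.3.3; lmFit, contrasts.fit, eBayes with a trend) with 1 mean per group was fitted to all 44 libraries without a filter, two-sided, with Benjamini-Hochberg adjustment over 152393 peaks. The fit was also run on simulated data, and no result above rests on that run. Same-numbered KO and Ctrl late morula libraries deviated together (correlation of deviations from the group means across peaks 0.141, 0.192 and 0.109). The other pairs were negative, which taking deviations from group means favours, so their sign adds little. The main fit left the replicate number out, and its SEs and adjusted p-values are given unless the paired fit is named. The paired fit, with same-numbered libraries as pairs, is given beside results it moves. Alternatives were the replicate block, only the libraries compared, a filter at the median rlog, quantile normalization, no trend, and leaving out each library. The fits of the morula comparison without 1 library, the set means, the repeat words and the position between stages were chosen after seeing the data.

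Windows were read from GRCm38, the assembly of mm10, in the RefSeq copy, whose lower-case letters mark repeats, and 4 windows hold an unknown base. Genes and start sites are those of GENCODE vM21, where the authors used vM23. Named peaks are those within 5 kb of *Pou5f1*; the 10 decreased and 6 increased peaks with the largest difference among those without overlap; 9 enhancers of the study; called peaks within 10 kb of the genes of 12 lists; the 6 and 3 genes with the most called peaks; and the first 3 peaks in each direction of each difference between stages. Of these, 1 of the 6 largest increases is not reported here. The members and lists were chosen with earlier results of these data known. Data were handled with Python 3.11.15, numpy 2.4.6, pandas 2.3.3 and scipy 1.17.1.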

Additional observations from a re-analysis of the deposited data

Results flagged for a closer look

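The effect of the knockout differed between early ICM and late morula at 444 peaks in the negative and at 84 peaks in the positive direction, by a test of the difference in limma. The early ICM effect minus the late morula effect was -3.83 at a peak 103227 bp upstream of *Rrs1* (-3.42 against 0.41), -3.55 in *Tasp1* (-3.76 against -0.21) and -3.64 in *Slc25a46* (-3.59 against 0.06). In these 3 peaks KO and Ctrl overlapped in late morula. It was 3.54 in *Mum1l1* (2.07 against -1.47), 3.12 near *Tspan12* (2.68 against -0.44) and 2.58 near *Spin1* (1.77 against -0.81).

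Among the peaks called in late morula, the difference between the stages was also called at the increased peaks of *Fam20b* (-2.73) and *Kcnk3* (-2.74), which were higher in KO than in Ctrl in late morula and had early ICM differences of -0.24 and -0.56. It was called at the decreased peaks near *Ccn2* (2.01), near *Olfr787* (2.95) and in *Tmc1* (2.69), with early ICM differences of -0.87, 0.15 and 0.35. At the *Utf1* enhancer, not called in late morula, it was -2.65. Treatment and isolation of the early ICMs cannot be told apart from stage in all of these.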

How the results depend on the processing

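No named peak that was called changed its direction under the alternatives run. The replicate block over all libraries called 1357 decreased and 350 increased peaks, and over the 6 late morula libraries alone 2469 and 1328. The unpaired fit of those 6 libraries called 369 increased peaks, quantile normalization 264, and a filter at the median rlog 63. Without a trend the fit called 672 decreased and 146 increased peaks. Without 1 library the counts ran from 301 to 544 decreased and from 27 to 115 increased. Between late morula and morula the paired fit called 1 peak, and 0 were called in each fit without 1 library. Between early ICM and late morula the paired fit called 1053 and 408 peaks, the filter 263 and 55, the fit of the compared libraries alone 128 more positive ones, and fits without 1 library from 95 to 449 and from 8 to 112. Among the decreased peaks of the paired fit, the share decreased was 11.05% for morula, 52.32% for early ICM and 50.41% for late ICM; without 1 morula library the share of the unpaired set decreased in morula ran from 0.73% to 33.2%. More than 1 kb from a start site were 91.73% of decreased and 90.3% of increased peaks, and with 3 changed letters allowed 38.08% of decreased windows held the OCT-SOX word.

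Near 0, the sign of peaks not called changed without 1 library. Of the 7 peaks near *Pou5f1*, 6 changed sign and ran from -0.32 to 0.44, -0.40 to 0.01, -0.20 to 0.66, -0.56 to 0.03, -0.16 to 0.58 and -0.30 to 0.15. The enhancers ran from -0.03 to 1.17 at *Prdm14*, -0.56 to 0.13 at Sox2_SRR2, -0.25 to 0.01 at Nanog_DE and -0.05 to 0.20 at Nanog_PE, and 2 other peaks from -0.52 to 0.40 at *Tasp1* and -0.58 to 0.53 at *Slc25a46*. The cause was not tested. With 3 libraries a group, the smallest difference among the called peaks was 1.13 in size, and what could be called at a peak depends on its own SE.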
